A study of Mus musculus with 8 samples.

Results

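The genes described here are 10 markers of blood vessels, 9 of endothelial cells (*Pecam1*, *Kdr*, *Flt1*, *Tek*, *Tie1*, *Cldn5*, *Esam*, *Cdh5* and *Emcn*) and *Pdgfrb*, the receptor that marks pericytes, of 19938 genes named on the arrays. They were listed by name as markers of vessel cells, with earlier results of these arrays known, and each had exactly 1 probe set. Their levels were followed over 4 groups of 2 arrays. E14.5 and E13.5 sorted neurons were GFP-positive mesodiencephalic dopaminergic (mdDA) neurons isolated by fluorescence-activated sorting from the ventral midbrain of Pitx3GFP/+ mouse embryos of mixed C57BL/6 x 129/Ola background, which carry a GFP knock-in in 1 allele of *Pitx3*, a transcription factor of mdDA neurons. The other groups, mdDA domain and lateral domain, were cut by laser from sections of E12.5 BAT-gal embryos of mixed B6D2F1 background, in which b-galactosidase is driven by LEF1/TCF sites and reports WNT/b-catenin signalling. The mdDA domain held PITX3-positive and b-galactosidase-positive tissue of the ventral midbrain, and the lateral domain held tissue of the same embryos that was negative for both. Both domains came from a pool of 5 embryos and from tissue that had been fixed, sectioned and stained. The number of embryos behind each sort is not given in the sources used here. The 2 arrays of a group were technical replicates, so each group was 1 pool. Stage, strain, genotype, isolation and study all changed between the sorted neurons and the dissected tissue and cannot be told apart. The sorted arrays had been reported in an earlier study. Whether both kinds of sample shared the amplification and the RMA run is not given in the sources used here.

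Endothelial cells line every blood vessel, and in the embryonic brain they enter from a plexus around the neural tube, guided by VEGF from neural progenitors, and form tight junctions as the blood-brain barrier develops. Pericytes wrap the capillaries, are recruited by PDGF-B from the endothelium through PDGFRB, and share a basement membrane with it. A sort for a neuronal reporter is meant to leave both cell types behind, whereas a piece of tissue cut from a section holds whatever vessels ran through it. In RNA from a pool of cells, fewer cells of a type and less RNA per cell cannot be told apart.

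All 10 genes had a lower mean level in sorted neurons than in dissected tissue, and on 8 of them every sorted array lay below every dissected array, as was so for 14.8% of all probe sets. By rank among the probe sets of each array, it held for 5 of the 10, and the share over all probe sets by rank was not computed. *Emcn*, encoding a sialomucin of the endothelial surface, and *Cdh5*, encoding VE-cadherin, the adhesion molecule of the endothelial junction, had the largest differences, of −1.30 and −1.03 on the log2 scale, although *Emcn* did not exceed the upper range of silent genes on any sorted array. *Flt1*, *Tie1*, *Cldn5* and *Pdgfrb* also fell in sorted neurons, and *Pecam1*, *Tek*, *Kdr* and *Esam* did not pass the test. Like *Emcn*, *Pdgfrb* did not exceed the upper range of silent genes on any sorted array. The 6 calls among the 10 genes stood against 5.08% of all probe sets called lower. They came down to 3 with arrays centred on their medians and to 2 with quantile normalization repeated. No gene of the 10 passed a test between the mdDA domain and the lateral domain or between E14.5 and E13.5 neurons.

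The promoters of many endothelial genes hold sites for ETS transcription factors, alone or joined to a forkhead site. RefSeq (GRCm38.p6) start sites were at hand for 6 of the 10 genes, *Kdr*, *Flt1*, *Tek*, *Tie1*, *Cldn5* and *Emcn*, and the 250 bases before each were searched on both strands for the ETS cores CGGAAG and AGGAAG, for the forkhead-ETS core AACAGGAA, which shares its GGAA with an ETS core, and for the TATA box TATAAA. An ETS core was found in 3 of the 6 windows, those of *Flt1*, *Tie1* and *Emcn*, which are the ones shown. The share over 32851 promoters of the same length was 39.2% for either ETS core, 13.6% for CGGAAG, 29.5% for AGGAAG, 2.25% for AACAGGAA and 12.4% for TATAAA. Capitals mark the matches, read 5′ to 3′ on the strand of the gene, and a match on the opposite strand appears as its reverse complement. The windows lie at chr5:147726012-147726261 (minus strand) for *Flt1*, chr4:118489850-118490099 (minus strand) for *Tie1* and chr3:137340828-137341077 (plus strand) for *Emcn*.
Flt1: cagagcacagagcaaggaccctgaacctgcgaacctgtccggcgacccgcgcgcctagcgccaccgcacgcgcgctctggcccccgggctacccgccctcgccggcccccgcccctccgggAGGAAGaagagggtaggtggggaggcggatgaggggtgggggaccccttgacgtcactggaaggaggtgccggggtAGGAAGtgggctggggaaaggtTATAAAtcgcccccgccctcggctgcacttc
Tie1: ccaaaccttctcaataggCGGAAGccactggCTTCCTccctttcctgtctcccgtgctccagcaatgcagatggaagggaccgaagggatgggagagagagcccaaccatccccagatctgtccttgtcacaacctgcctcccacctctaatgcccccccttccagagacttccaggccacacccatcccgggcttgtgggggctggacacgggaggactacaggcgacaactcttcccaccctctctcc
Emcn: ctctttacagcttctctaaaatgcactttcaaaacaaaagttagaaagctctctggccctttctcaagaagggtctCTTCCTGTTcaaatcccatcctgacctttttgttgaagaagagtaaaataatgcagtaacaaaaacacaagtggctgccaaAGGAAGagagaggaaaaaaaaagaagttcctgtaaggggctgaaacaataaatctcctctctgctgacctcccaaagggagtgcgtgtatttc
The window of *Flt1* held AGGAAG with its first base 129 and 53 bases before the start site and a TATA box 31 bases before it. That of *Tie1* held CGGAAG 232 bases before the start site and AGGAAG on the opposite strand 219 bases before it. In *Emcn*, AGGAAG and AACAGGAA overlapped on the opposite strand, from 174 and 173 bases before the start site, and a further AGGAAG began 93 bases before it. The windows of *Kdr*, *Tek* and *Cldn5* held none of these letters, which says nothing about the factors that act on them.

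The values are log2 levels per probe set after RMA, which corrects background, brings arrays to a common distribution and summarizes the probes of a set. Array medians over all 35556 probe sets were 4.39 on the sorted arrays and 4.57 to 4.60 on the dissected arrays, and the 2 arrays of a group correlated at 0.966 to 0.983 across probe sets. As a guide to the level of silent genes, 1210 probe sets of olfactory and vomeronasal receptors had medians of 2.96 to 3.0 on the sorted arrays and 3.09 to 3.17 on the dissected arrays. The scale at the low end was therefore not the same in both kinds of sample. Over all probe sets the median difference, sorted minus dissected, was −0.09 on the log2 scale, and over the receptors it was −0.16. *Slc6a3*, the dopamine transporter of mdDA neurons, stood at 8.01 to 8.50 on the sorted arrays against 4.66 to 6.08 on the dissected arrays. Of 8 mdDA neuron genes it was the only 1 called, higher in sorted neurons, and 0 were below 0 by the mean. *Pitx3* itself stood at 7.72 to 7.97 on the sorted arrays against 6.47 to 7.44 on the dissected arrays (limma adjusted p = 0.168).

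The 10 genes were dim on every array. Their mean was 3.79 to 3.87 on the sorted arrays and 4.41 to 4.59 on the dissected arrays. On the sorted arrays 9 of the 10 never exceeded the median of all probe sets, and on the dissected arrays 2 of them, *Cdh5* and *Cldn5*, did so on all 4. Probe sets differ in how strongly they respond, so the 95th percentile of the receptor probe sets serves only as a rough limit. It was passed on all 4 sorted arrays by 0 of the 10 genes and on all 4 dissected arrays by 5, namely *Flt1*, *Tie1*, *Cldn5*, *Cdh5* and *Pdgfrb*. Of the 10 genes, 3 passed it on none of the sorted arrays (*Tek*, *Emcn* and *Pdgfrb*), and 2 on none of the dissected arrays (*Tek* and *Esam*). The mean of the 10 genes exceeded the receptor median of the same array by 0.82 to 0.90 on the sorted arrays and by 1.28 to 1.41 on the dissected arrays.

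**Figure D1:**
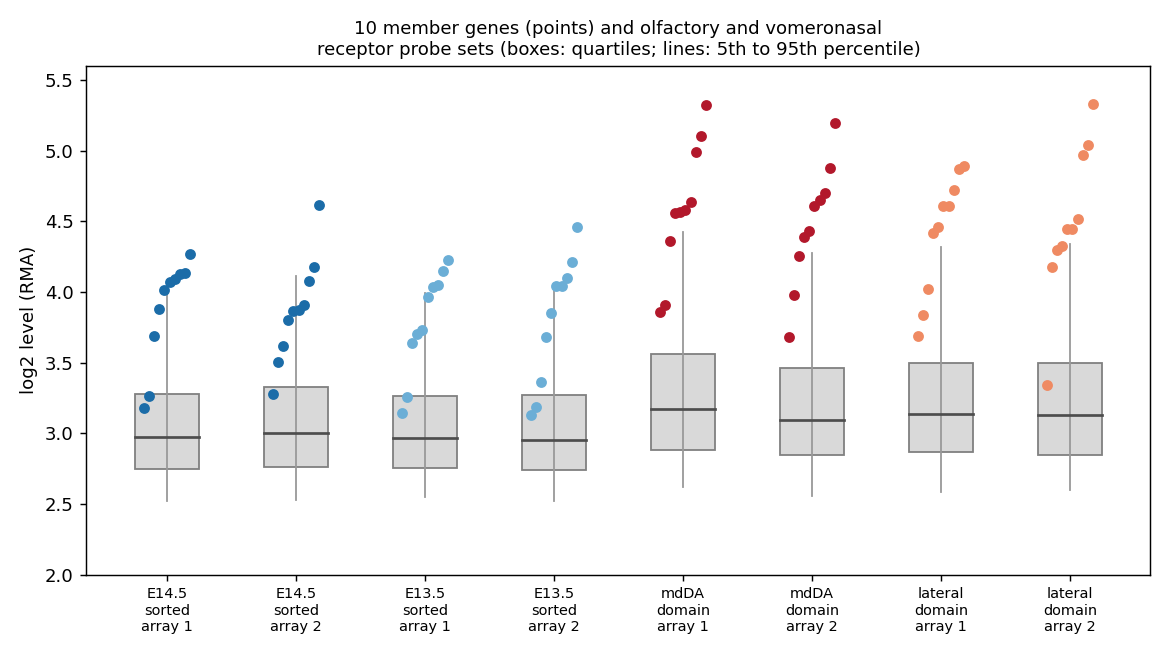
Log2 levels of the 10 genes (coloured points, sorted by value) on each of the 8 arrays, over the olfactory and vomeronasal receptor probe sets of that array (grey boxes are quartiles with the median, lines run from the 5th to the 95th percentile). Most points of the sorted arrays lie inside the receptor range or just above it, and 5 of the 10 genes lie above it on all 4 dissected arrays.

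Whether vessel transcripts were lower in sorted neurons than in dissected tissue was tested with limma on the means of the 4 pools, 2 against 2, with Benjamini-Hochberg adjustment over all probe sets and a false discovery rate (FDR) below 10%. It called 6 of the 10 genes lower and 0 higher. The spread it used was that between the 2 stages and between the 2 domains, since no pool was repeated. Among all probe sets 5.08% were called lower and 4.77% higher. The median difference of the 10 genes was −0.63 (range −1.30 to −0.21), against the −0.09 of all probe sets. Levels of 8 of the 10 genes did not overlap between the sorted and the dissected arrays, with the sorted arrays lower, as for 14.8% of all probe sets. On each array's own ranking of probe sets, 5 of the 10 genes did not overlap in this way, and the share over all probe sets was not computed. Against the mdDA domain alone the median difference was −0.64 and against the lateral domain alone −0.61, with 10 of 10 genes below 0 in both, which were not tested.

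The count depended on the scaling of the arrays. With each array centred on its median the test called 3 of the 10 genes, and with quantile normalization repeated it called 2. The median difference of the 10 genes was then −0.42 under both. Centring on the median moved the median difference of all probe sets to 0.11 and the share of calls that were higher in sorted neurons to 77.4%, against 48.4% as deposited. Centring each array on the receptor median, an alternative chosen after seeing the data, left 5 of the 10 genes called, with a median difference of −0.47 and 72.9% of all calls higher. All 10 differences stayed below 0 under these 3 scalings, but that of *Esam* was only −0.01 under the first 2.

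**Figure D2:**
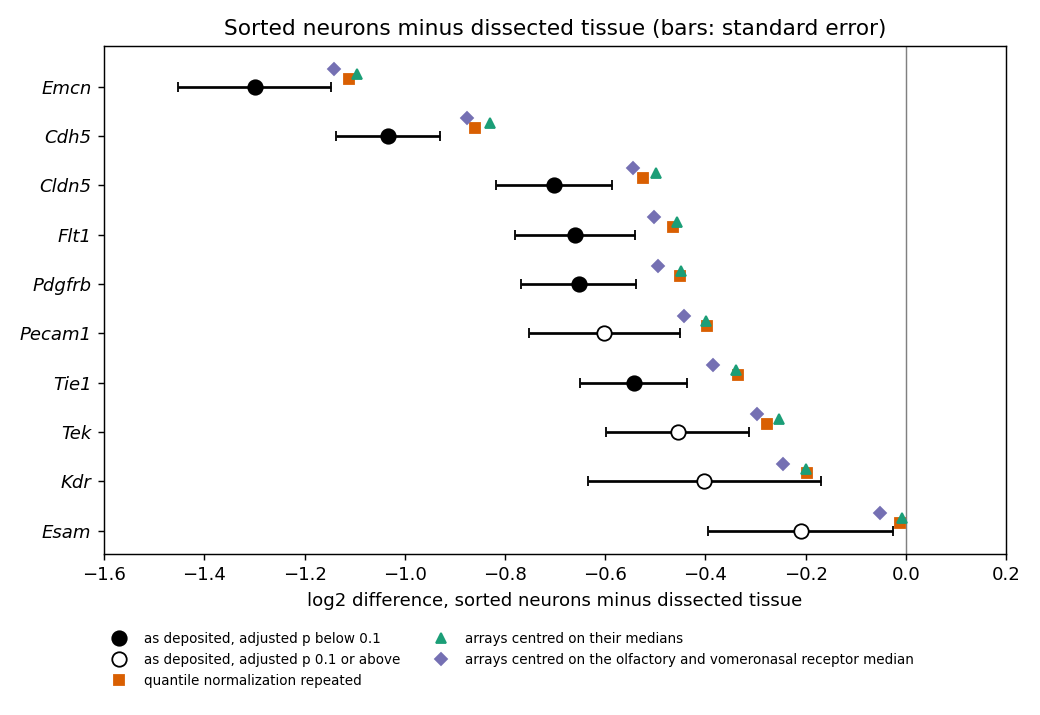
Log2 difference of each gene, sorted neurons minus dissected tissue, as deposited (circles with standard errors, filled where the limma adjusted p was below 0.1) and after 3 other scalings of the arrays (coloured symbols). All differences lie below 0, from −1.30 for *Emcn* to −0.21 for *Esam* as deposited, and the other scalings bring each of them closer to 0.

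Of the junction and surface genes, *Cdh5* read 4.02 and 4.18 in E14.5 neurons and 4.15 and 4.04 in E13.5 neurons, against 5.11 and 5.20 in the mdDA domain and 4.89 and 5.33 in the lateral domain. All 4 sorted arrays lay close together and well below all 4 dissected arrays. The difference was −1.03 ± 0.10 (SE; limma adjusted p = 0.0635). On each array's own ranking of probe sets, *Cdh5* stood on average at percentile 44.5 in sorted neurons and 59.1 in dissected tissue.

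*Emcn* was at 3.26 and 3.51 in E14.5 neurons and at 3.26 and 3.13 in E13.5 neurons, against 4.57 and 4.88 in the mdDA domain and 4.61 and 4.30 in the lateral domain. The gap between the highest sorted and the lowest dissected array was 0.79, the widest of the 10 genes, but the sorted values lay within the range of the receptor probe sets, so the difference is measured against a level that cannot be told from that of silent genes. The difference was −1.30 ± 0.15 (SE; limma adjusted p = 0.0635), and the mean percentile was 24.2 in sorted neurons and 49.7 in dissected tissue. *Emcn* and *Cdh5* were the 2 genes that were below 10% FDR in all 18 alternatives that kept this threshold, with differences of −1.38 to −1.10 for *Emcn* and −1.14 to −0.83 for *Cdh5*. For genes given with 17 alternatives, the filter on dim probe sets had left the gene out.

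*Cldn5*, the main claudin of tight junctions in brain endothelium, read 4.09 and 4.62 in E14.5 neurons and 3.96 and 4.46 in E13.5 neurons, against 5.32 and 4.70 in the mdDA domain and 4.87 and 5.04 in the lateral domain. Here the arrays of a pool were far apart except in the lateral domain, and the highest sorted array came within 0.09 of the lowest dissected one. *Cldn5* fell by 0.70 ± 0.12 in sorted neurons (SE; limma adjusted p = 0.0742), a call present in 12 of 18 alternatives.

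*Pecam1* encodes CD31, an adhesion molecule that endothelial cells share with platelets and some leukocytes. Its level was 4.07 and 3.91 in E14.5 neurons and 3.73 and 3.68 in E13.5 neurons, against 4.36 and 4.39 in the mdDA domain and 4.72 and 4.33 in the lateral domain. The groups did not overlap, but the difference of −0.60 ± 0.15 did not pass the test (SE; limma adjusted p = 0.119).

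*Esam*, encoding an adhesion molecule of endothelial tight junctions and platelets, read 4.14 and 3.80 in E14.5 neurons and 3.70 and 3.37 in E13.5 neurons, against 3.86 and 3.98 in the mdDA domain and 3.83 and 4.18 in the lateral domain. The E14.5 arrays overlapped the dissected arrays, and only the E13.5 arrays lay wholly below them. The difference was the smallest of the 10 at −0.21 ± 0.18 (SE; limma adjusted p = 0.520) and passed in 0 of 17 alternatives. Its mean percentile was 36.3 in sorted neurons and 36.9 in dissected tissue.

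**Figure D3:**
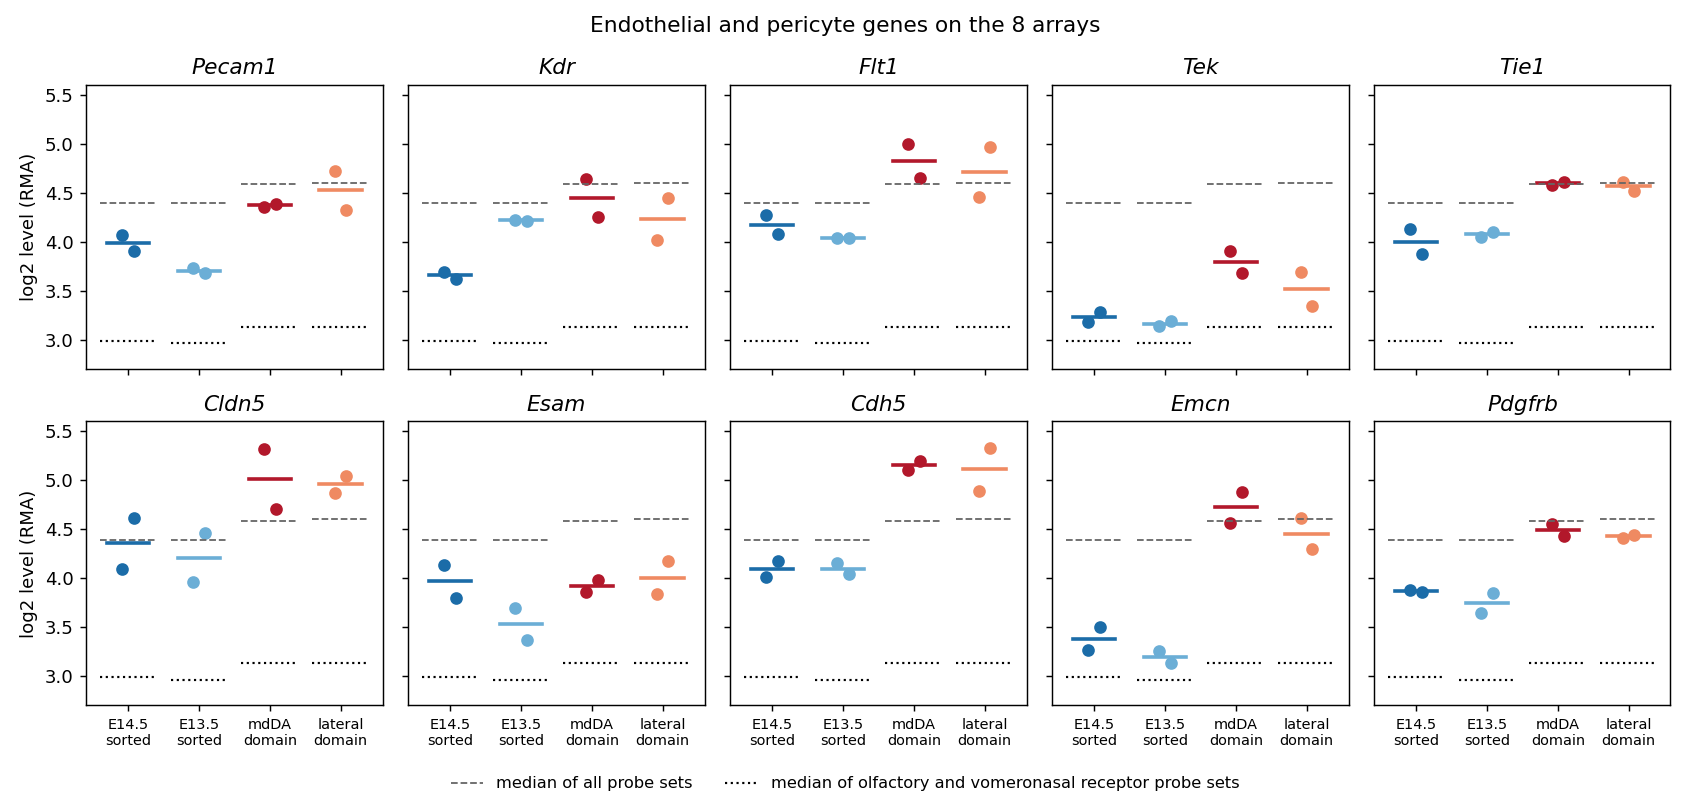
Log2 level of each of the 10 genes on the 2 arrays (points) of each of the 4 groups, with the group mean (bar), the median of all probe sets (dashed) and the median of the olfactory and vomeronasal receptor probe sets (dotted). For *Cdh5* and *Emcn* the sorted arrays (blue) lie far below the dissected arrays (red and orange), while for *Kdr* and *Esam* they overlap.

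Of the VEGF receptors, *Flt1* encodes VEGFR1, which binds VEGF-A tightly and, largely as a decoy, limits its action. Its level was 4.27 and 4.08 in E14.5 neurons and 4.04 and 4.04 in E13.5 neurons, against 4.99 and 4.65 in the mdDA domain and 4.46 and 4.97 in the lateral domain. The sorted arrays lay together below the dissected ones, whose 2 arrays differed by more within each domain than the domains did from each other. *Flt1* fell by 0.66 ± 0.12 in sorted neurons (SE; limma adjusted p = 0.0789), and the call was present in 13 of 18 alternatives.

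*Kdr* encodes VEGFR2, the main signalling receptor for VEGF-A in endothelium. It read 3.69 and 3.62 in E14.5 neurons and 4.22 and 4.21 in E13.5 neurons, against 4.64 and 4.26 in the mdDA domain and 4.02 and 4.45 in the lateral domain. The E13.5 arrays fell inside the range of the lateral domain and the E14.5 arrays below every other array. The difference of −0.40 ± 0.23 between sorted neurons and dissected tissue did not pass the test (SE; limma adjusted p = 0.350), and it passed in 1 of 17 alternatives.

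Of the angiopoietin receptor family, *Tie1*, a receptor without a firmly established ligand of its own that modulates TIE2, read 4.13 and 3.87 in E14.5 neurons and 4.05 and 4.10 in E13.5 neurons. It read 4.58 and 4.61 in the mdDA domain and 4.61 and 4.52 in the lateral domain. All arrays of dissected tissue lay within 0.1 of each other and above all sorted arrays. *Tie1* fell by 0.54 ± 0.11 in sorted neurons (SE; limma adjusted p = 0.0869), and with 9 of 18 alternatives its call was the least often present of the 6.

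*Tek* encodes TIE2, the receptor for the angiopoietins. It was at 3.18 and 3.28 in E14.5 neurons and 3.14 and 3.19 in E13.5 neurons, against 3.91 and 3.68 in the mdDA domain and 3.69 and 3.34 in the lateral domain. Its probe set was dim throughout, and the lowest dissected array was only 0.06 above the highest sorted one. The difference of −0.46 ± 0.14 did not pass the test (SE; limma adjusted p = 0.158).

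The pericyte receptor *Pdgfrb* read 3.88 and 3.86 in E14.5 neurons and 3.64 and 3.85 in E13.5 neurons, against 4.56 and 4.43 in the mdDA domain and 4.41 and 4.44 in the lateral domain. Arrays of a kind differed little, and the 2 kinds were clearly apart. *Pdgfrb* fell by 0.65 ± 0.11 in sorted neurons (SE; limma adjusted p = 0.0782), with a call in 11 of 17 alternatives, but its sorted values, too, lay within the receptor range and cannot be told from the level of silent genes. Of the 10 genes it had the profile nearest to their common mean profile, at a root mean square distance of 0.05 on the log2 scale over the 8 arrays.

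Whether the vessel genes differed between the mdDA domain and the lateral domain of the same embryos was tested with limma paired by replicate number. It called 0 of the 10 genes, also at an unadjusted p under 0.05, while 1.10% of all probe sets were called lower and 1.52% higher. The median difference, mdDA minus lateral, was 0.06 (range −0.15 to 0.28), with 8 of 10 genes higher by the mean. The largest was that of *Tek*, at 0.28 ± 0.15 (SE; limma adjusted p = 0.536), followed by *Emcn* at 0.27 ± 0.21 (SE; limma adjusted p = 0.691). *Kdr*, at 0.22 ± 0.24, had an error larger than its difference, and *Cdh5* was at 0.04 ± 0.17. Since the arrays are technical replicates of 1 pool, the errors do not cover the spread between embryos.

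Between the 2 stages of sorted neurons limma called 0 of the 10 genes and 0% of all probe sets, with 2156 probe sets at an unadjusted p under 0.05. A fit over all 8 arrays called 20 probe sets and none of the 10 genes. *Kdr* alone of the 10 was at an unadjusted p under 0.05, with a difference, E14.5 minus E13.5, of −0.56 ± 0.13 (SE; limma adjusted p = 0.744). *Esam* was at the other end, at 0.44 ± 0.21 (SE; limma adjusted p = 0.857), and the median of the 10 genes was 0.13. *Cdh5* had a mean of 4.10 at both stages.

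Other vessel genes, from lists that were drawn up with earlier results of these data known, were read in the same comparison. Their calls, and those of the further lists below, were not repeated under other scalings. Of 24 other endothelial genes measured, 5 fell in sorted neurons and 0 rose, where 5.08% of all probe sets fell. Of the 24, 22 were below 0, and the median was −0.47. *Ecscr*, encoding an endothelial surface regulator of cell movement, read 4.27 to 4.80 on the sorted arrays against 5.64 to 6.21 on the dissected arrays, a difference of −1.42 ± 0.13 (SE; limma adjusted p = 0.0635). *Cd34*, a sialomucin of endothelial and blood progenitor cells, read 3.62 to 3.86 on the sorted arrays against 4.62 to 5.34 on the dissected arrays. It was above the receptor limit on none of the sorted arrays. The apelin receptor *Aplnr* fell by 0.75 and the TGF-b co-receptor *Eng* by 0.68. Unlike the 10 genes, 12 of the 24 were above the receptor limit on all 4 sorted arrays.

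Of 18 genes of the blood-brain barrier and of tip cells, the leading cells of vessel sprouts, 5 fell and 0 rose, where 5.08% of all probe sets fell. By the mean 14 of the 18 were below 0, with a median of −0.30. *Tfrc*, the transferrin receptor, went the other way, at 0.28, without a call. *Mfsd2a*, the lipid transporter of barrier endothelium, read 4.29 to 5.42 on the sorted arrays against 6.08 to 7.03 on the dissected arrays. *Slc2a1*, the glucose transporter GLUT1, which neural progenitors also express, fell by 1.11, and the forkhead genes *Foxf2* and *Foxq1* fell by 0.71 and 0.70. *Foxq1* was above the receptor limit on 1 sorted and 3 dissected arrays. *Foxf2* was above it on none of either kind, so its levels cannot be told from those of silent genes. Of 18 other pericyte and mural cell genes 2 fell and 0 rose, with a median of −0.30, where 5.08% of all probe sets fell. These were *Gja4*, the connexin 37 of arterial endothelium, at −1.07 and *Mcam*, the adhesion molecule CD146 of endothelium and pericytes, at −0.74. Of 10 ligands for the receptors above, only *Vegfc*, a ligand of the lymphatic receptor VEGFR3 and of VEGFR2, passed the test, at −0.54, and the median was −0.26. Counts of 2 of 18 and 1 of 10 are too few to be read as a result about these lists.

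**Figure D4:**
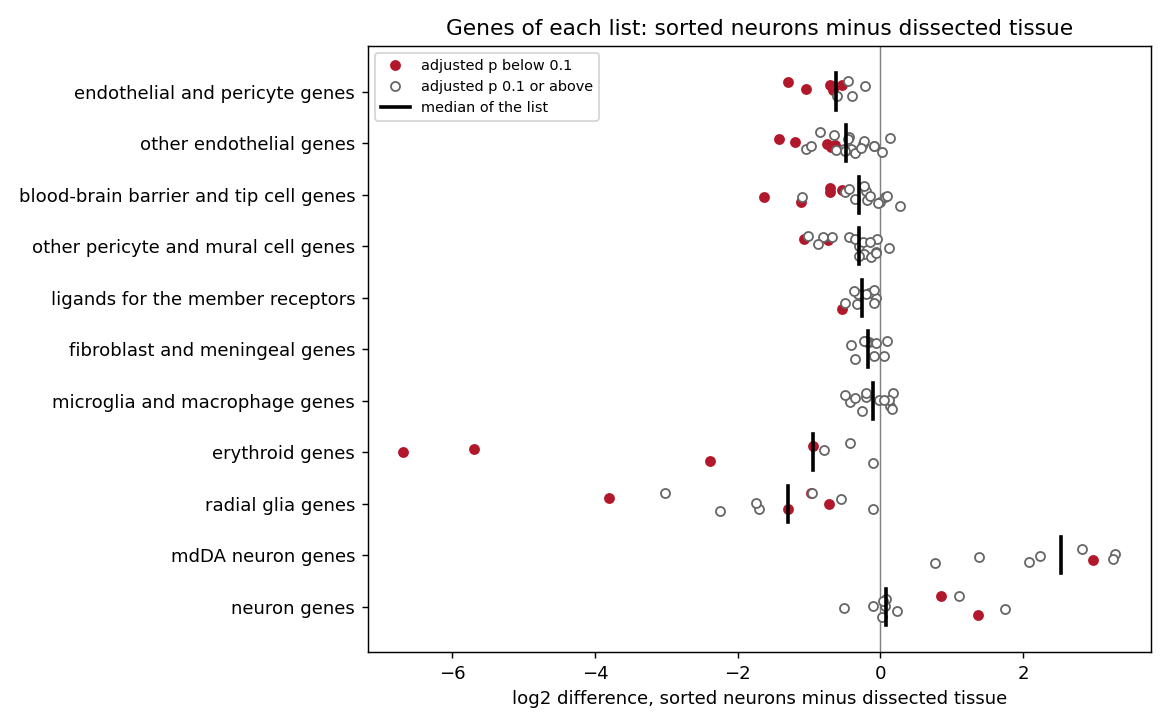
Log2 difference, sorted neurons minus dissected tissue, of the measured genes of each list (1 point per gene, filled red where the limma adjusted p was below 0.1) with the median of the list (black bar). The 10 endothelial and pericyte genes lie at a median of −0.63, and erythroid and radial glia genes reach much lower values.

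Of the markers of other cells of the tissue, some erythroid and radial glia genes moved with the vessel genes. Of 7 erythroid genes measured 4 fell in sorted neurons, among them the embryonic globins *Hbb-y* and *Hba-x*, where 5.08% of all probe sets fell. *Hbb-y* read 3.76 to 3.97 on the sorted arrays against 10.3 to 10.7 on the dissected arrays. The summed level of the list on the linear scale was 115 to 123 in sorted neurons and 2827 to 3235 in dissected tissue, and of the 7 genes 3, *Hba-x*, *Alas2* and *Slc4a1*, were above the receptor limit on all 4 sorted arrays, while the other 4, *Hbb-y* and *Hbb-bh1* among them, were above it on none. Of 11 radial glia genes 4 fell, against the same 5.08% of all probe sets. *Nes*, the intermediate filament of neural progenitors, was at −3.81, and the median of the list was −1.29. Of 10 fibroblast and meningeal genes and of 12 microglia and macrophage genes 0 passed the test, with medians of −0.17 and −0.11. *Col1a1*, the collagen of connective tissue, read 5.11 to 5.40 on the sorted arrays and 5.17 to 5.49 on the dissected arrays, and the microglial receptor *Cx3cr1* read 4.96 to 5.34 on the sorted arrays and 5.18 to 5.90 on the dissected arrays, with overlap of the groups in both. The other bright gene of each list differed from this. *Col1a2*, also a collagen gene, read 4.64 to 4.76 on the sorted arrays and 4.85 to 5.42 on the dissected arrays, with no overlap and no call (limma adjusted p = 0.119). *C1qb*, a complement gene of microglia, had a difference of 0.18 ± 0.51 (SE; limma adjusted p = 0.847), with 6.72 and 5.25 in E14.5 neurons and 4.33 and 4.77 in E13.5 neurons, against 4.80 to 5.26 on the dissected arrays. The part of these cell types in the result for the vessel genes was not tested.

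On the linear scale, summed levels of the 10 genes were 142 to 151 on the sorted arrays and 221 to 252 on the dissected arrays. Those of the other endothelial genes were 488 to 510 on the sorted arrays and 736 to 799 on the dissected arrays, and those of the other pericyte and mural cell genes 301 to 356 on the sorted arrays and 469 to 521 on the dissected arrays. In all 3 sums the sorted arrays lay below the dissected arrays, and within dissected tissue the mdDA and lateral arrays of the 10 genes overlapped, at 232 to 252 in the mdDA domain and 221 to 239 in the lateral domain. Markers of mdDA neurons summed to 5217 to 5637 in sorted neurons, 2983 to 3038 in the mdDA domain and 394 to 413 in the lateral domain. Between the 2 domains, 7 of 8 mdDA neuron genes rose in the mdDA domain by the paired test, and 0 of the 10 vessel genes passed it.

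The genes whose levels over the 8 arrays ran closest to the mean profile of the 10, each gene taken relative to its own mean, were *Tmc4*, *Mir383*, *Hmcn1*, *B230344G16Rik*, *Prrxl1*, *Olfr1289*, *Timm8a2* and *Spn*, at root mean square distances of 0.06 to 0.09 on the log2 scale. None of them is on any of the vessel lists, and 1 is an olfactory receptor. *Pdgfrb* was nearer to the profile than any gene outside the 10, *Tie1* ranked 56 and *Flt1* 116 of 19938 genes. The 10 genes make up this profile, so their own ranks are favoured in advance. *Emcn*, whose difference was the largest, ranked 10952.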

How the data were processed

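The deposited values are on the log2 scale, 1 per probe set, and come from RMA with sketch-quantile normalization in Affymetrix Expression Console 1.2 (from the submitters' processing notes and the methods), for 35556 probe sets on 8 arrays. They were used as deposited. No genome build of the array is given in the sources used here, and the file has no detection calls. Of the probe sets, 21789 had 1 gene symbol in the platform annotation, 1621 several and 12146 none in the table used, and 21698 were matched to RefSeq by gene identifier. A gene with several probe sets (999 of 19938) entered with its brightest probe set by the 8-array mean.

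The 10 genes and the 10 further lists were chosen with earlier results of these data known. Of each further list, up to 4 genes called between sorted neurons and dissected tissue (the largest differences) are named, or, with none called, the 2 with the highest mean level, and the 8 genes with the most similar profile.

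Tests used limma 3.58.1 in R 4.3.3, with Benjamini-Hochberg adjustment over all probe sets at an FDR below 10%. Sorted neurons were compared with dissected tissue on pool means (technical replicates averaged first), the mdDA domain with the lateral domain with the replicate number as block, as the methods name a paired test, and E14.5 with E13.5 neurons without a block. In the last 2 comparisons p-values cover technical spread only. In the first, the spread is that between the 2 stages and between the 2 domains, which came from the same embryos. It holds no independent repeat of either kind of sample. Each fit was run on simulated data with independent arrays and changes larger than those of the 10 genes. Such data cannot test calls of the size seen here. Alternatives were quantile normalization repeated, median centring, receptor centring, a filter on dim probe sets (above the array median on at least 2 arrays), trend and robust priors, an FDR of 5%, a 1.5-fold minimum, only probe sets with 1 symbol, the mean of a gene's probe sets, all 8 arrays as samples with and without the replicate block or with the pool as a random block, and leaving out each array. The number of arrays limits the precision. Promoter windows are from RefSeq (GRCm38.p6). Summaries were made with pandas 2.3.3 and numpy 2.4.6 in Python 3.11.15, and plots with matplotlib 3.10.9.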

Additional observations from a re-analysis of the deposited data

How the results depend on the processing

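Of the 10 genes, 6 were called lower in sorted neurons. This count was 3 with arrays centred on their medians, 2 with quantile normalization repeated and 0 at an FDR of 5%, where 2 of all probe sets passed. Leaving out 1 array gave 2 to 5 calls, namely 2 without array 2 of the mdDA domain and 3 without array 2 of the E13.5 neurons or either array of the E14.5 neurons. In the other alternatives it was 5 to 9, with 9 when all 8 arrays counted as samples. Replicate numbers did not pair the arrays (the correlation of their deviations was −0.01 between the domains and 0.01 between the stages), and with the replicate block over all 8 arrays 8 of the 10 genes were called. No difference between sorted neurons and dissected tissue changed sign. Between the domains and between the stages 0 of the 10 genes passed in every alternative run, the fits with and without the replicate block included.

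Over all probe sets, calls between sorted neurons and dissected tissue numbered 3503 as deposited, 2082 with repeated quantile normalization, 10907 with all 8 arrays as samples, 8986 with the pool as a random block, 10047 with the replicate block, 2263 over probe sets with 1 symbol, 1860 with gene means and 1398 to 2858 with 1 array left out. Between the domains they numbered 931, against 1434 without the block, 1646 with trend and robust priors, 1451 with the dim filter, 227 at an FDR of 5%, 2502 over probe sets with 1 symbol, 2192 with gene means and 15 to 170 with 1 array left out. The cause of these changes was not tested. The genes are dim, and no file gives signal over background for them.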
